A study of Mus musculus with 2 samples.

Results

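The genes described here are 9 members of the Hedgehog signalling pathway and its limb circuit, picked by symbol from the 32285 genes listed in each matrix: the ligands Shh and Ihh, the receptor Ptch1, the transducer Smo, the decoy receptor Hhip, the transcription factors Gli1, Gli2 and Gli3, and Hand2, a posterior limb factor. All 9 were listed at both ages. They were measured in limb skeletal muscle tissue of wild-type (WT) C57Bl/6 mouse embryos at 2 embryonic ages, E12.5 and E15.5, with cells of fore- and hindlimbs together. Each age is 1 droplet library (10x Genomics, 3′ ends of transcripts), and how many embryos were pooled is not given in the labels. With 1 library per age no difference has a replicate check, no test between ages was made, and every interval below is a 95% interval that covers counting error only. The dissections held far more than muscle, so levels are given by cell class.

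Hedgehog ligands are secreted proteins that bind the receptor Ptch1. In the absence of ligand Ptch1 holds Smo inactive; ligand relieves this, and Smo then turns the Gli proteins from repressors into activators. Ptch1, Gli1 and Hhip are themselves direct transcriptional targets, and their RNA is commonly read as a gauge of pathway activity. In the limb bud Shh is made by a small group of posterior cells, where Hand2 acts upstream of it and Gli3 opposes it. Ihh is made later by prehypertrophic chondrocytes of the growth plate, where it forms a loop with Pthlh.

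In mouse genome build GRCm38 (GENCODE vM21 annotation), all 9 are protein-coding genes. Shh lies on chromosome 5 (28456815 to 28467256, minus strand), Ihh on chromosome 1 (74945315 to 74951672, minus) and Ptch1 on chromosome 13 (63508328 to 63573598, minus). Smo lies on chromosome 6 (29735503 to 29761365, plus), Hhip on chromosome 8 (79965851 to 80058006, minus) and Gli1 on chromosome 10 (127329882 to 127341974, minus). Gli2 lies on chromosome 1 (118834132 to 119053619, minus), Gli3 on chromosome 13 (15463235 to 15730026, plus) and Hand2 on chromosome 8 (57320983 to 57324633, plus). Shh, Gli1, Gli3 and Hand2 overlap genes on the opposite strand that are also in the matrices (9530036O11Rik, Arhgap9 and Gm47200, Gm6556, and Hand2os1). Whether the counting used strand is not given in the sources used here, so reads of these pairs may not be fully separated.

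The 250 bases before the RefSeq start site (GRCm38.p6) were matched for 7 of the 9 genes, all except Shh and Gli1. The promoters of 3 are shown, because Ptch1 and Hhip are targets that were called lower at E15.5 in connective tissue-like cells and have a matched window, and Ihh is the gene with the largest ratio between ages. Capitals mark CpG dinucleotides. The Ptch1 window (chr13:63565736-63565985, minus strand) lies in an intron of longer annotated transcripts, and the Hhip (chr8:80058009-80058258, minus) and Ihh (chr1:74951673-74951922, minus) windows lie upstream of the gene.
Ptch1: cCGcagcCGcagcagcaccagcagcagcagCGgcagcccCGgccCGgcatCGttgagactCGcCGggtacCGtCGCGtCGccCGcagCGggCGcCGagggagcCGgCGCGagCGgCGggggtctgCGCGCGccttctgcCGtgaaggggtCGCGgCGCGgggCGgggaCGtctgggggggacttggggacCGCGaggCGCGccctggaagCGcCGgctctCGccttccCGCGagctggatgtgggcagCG
Hhip: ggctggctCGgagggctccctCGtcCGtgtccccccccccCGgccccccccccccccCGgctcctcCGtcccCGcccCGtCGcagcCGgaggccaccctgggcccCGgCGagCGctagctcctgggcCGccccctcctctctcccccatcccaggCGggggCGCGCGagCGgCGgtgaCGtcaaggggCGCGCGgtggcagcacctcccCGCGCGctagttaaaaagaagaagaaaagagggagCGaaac
Ihh: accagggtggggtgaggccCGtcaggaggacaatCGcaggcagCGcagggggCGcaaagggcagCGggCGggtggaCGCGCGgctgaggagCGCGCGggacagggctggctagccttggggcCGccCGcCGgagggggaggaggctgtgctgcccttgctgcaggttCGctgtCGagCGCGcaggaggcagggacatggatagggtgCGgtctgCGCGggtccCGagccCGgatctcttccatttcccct
The Ptch1 window held 41 CpGs at 78.4% GC, the Hhip window 28 at 76.0% and the Ihh window 24 at 72.0%. Over all 7 windows the count ran from 15 (Smo and Hand2) to 41, against a median of 6 over the 32851 promoter windows of the same length, of which 27.3% held 15 or more. The Gli binding motif GACCACCCA was searched on both strands and allowed 1 mismatch. It matched none of the 7 windows, and 5.79% of all windows held such a match (0.225% an exact one), so that a match in so short a window is uncommon for any gene.

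After filters the E12.5 library held 11053 cells with a median of 2326 UMIs (unique molecular identifiers, each marking a captured RNA molecule), and the E15.5 library 3931 cells with a median of 9332 UMIs. Among the kept cells the libraries shared 11 barcodes. Classes were rebuilt from marker genes, and a name with "-like" rests on them alone. Connective tissue-like clusters were named by markers higher than in the non-mesenchymal classes (4 to 12 markers per cluster at E12.5, 11 to 12 at E15.5). In 4 of the 10 at E12.5, with 3248 of 6515 cells, none of these markers was 2-fold above the rest of the library. Connective tissue-like cells were the most numerous at both ages (6515, then 1267 cells), followed at E12.5 by chondrocyte-like (1430) and joint interzone-like (1258) cells. Muscle lineage-like cells, the labelled tissue, numbered 602 at E12.5, 5.45% of the cells, and 399 at E15.5, or 10.2%, and clusters led by Pax7 and Msc or by Mylpf and Myl1 were present at both ages. Joint interzone-like clusters were named at E12.5 and mural-like, mast cell-like and epithelial-like clusters at E15.5. At E12.5, 567 cells (5.13%) stayed unnamed, and at E15.5 992 cells (25.2%) did, among them clusters led by Aldh1a3 and Ngfr and by Nefm and Tac1. Those clusters (381 and 357 cells) had 11 and 12 connective tissue markers above the non-mesenchymal classes. An unnamed E12.5 cluster of 452 cells had 6. Each had 1 marker of another class among its top 10 genes, so these cells are not in the connective tissue-like values.

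Levels are given as CPM, a gene's UMIs per 1000000 UMIs of its class. The CPM ratio between ages is given on the log2 scale as E15.5 over E12.5, so that negative values mean lower at E15.5. A gene is said to be called when its ratio was at least 2-fold, its interval was clear of no difference and the class held at least 10 of its UMIs. CPM are shares of a total, and the median gene itself had a log2 ratio of -0.37 in connective tissue-like, -0.24 in chondrocyte-like and -0.38 in muscle lineage-like cells, so that small negative ratios lie within this common shift.

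**Figure D1:**
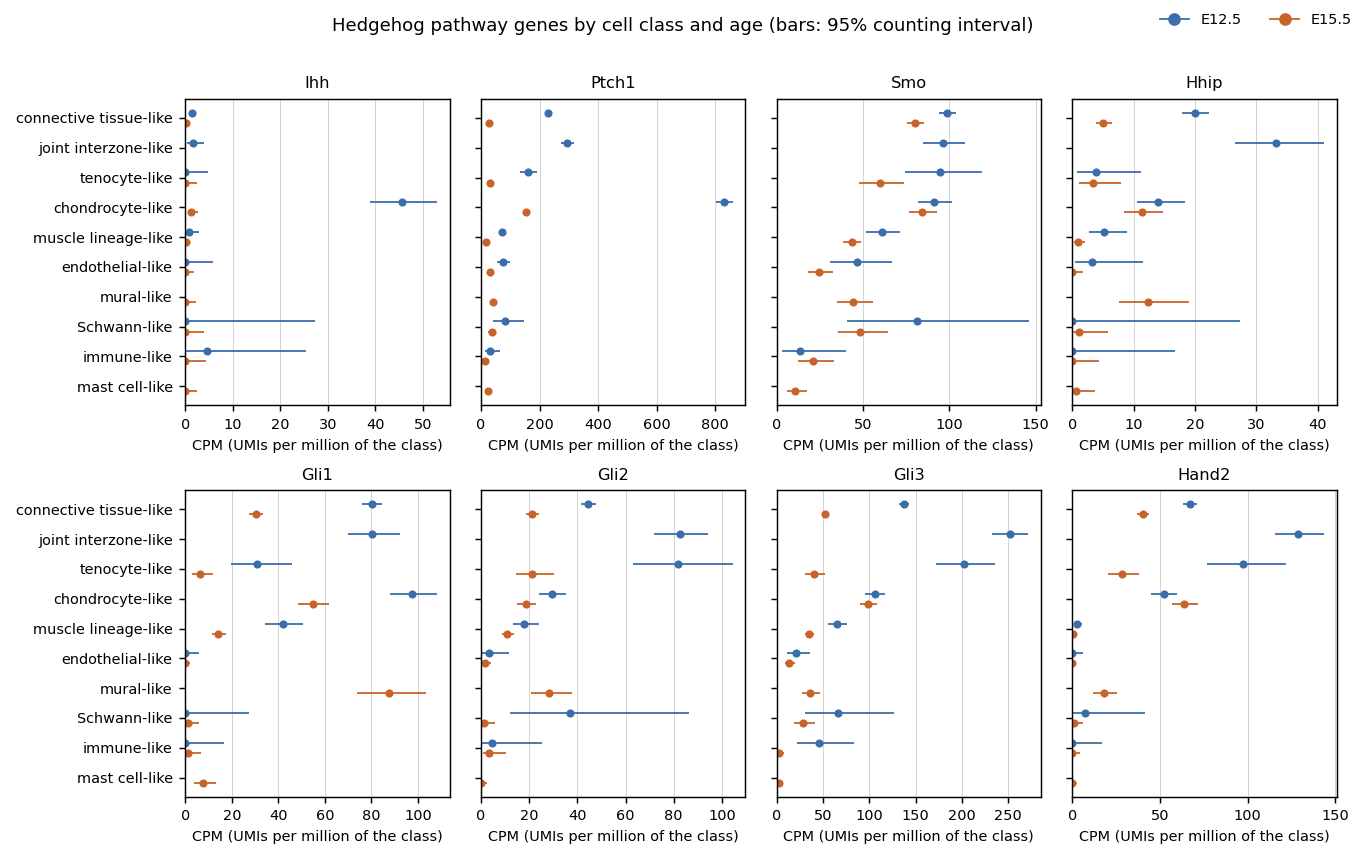
CPM (x axis, linear, a separate scale per gene) of 8 of the genes in each cell class (y axis) at E12.5 (blue) and E15.5 (orange); points are the summed UMIs of 1 library and bars the 95% counting interval. Ihh and Ptch1 were highest in chondrocyte-like cells at E12.5 (45.6 and 831 CPM), Gli1 at E15.5 was highest in mural-like cells (87.6 CPM), and Hand2 was near 0 in muscle lineage-like and endothelial-like cells.

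Shh, the ligand of the limb bud's polarizing region, was almost undetected, with 1 UMI in the whole deposited E12.5 library and 1 in the E15.5 library. Those UMIs came from 1 chondrocyte-like and 1 connective tissue-like cell, so that no level can be given for any class. Dhh, the third ligand of the family, which nerve-associated cells are known to make, was found in Schwann-like cells, where it stood at 37.0 CPM (12.03 to 86.5, 5 UMIs) in the younger library and 85.4 CPM (67.8 to 106, 81 UMIs) in the older one. Endothelial-like cells had 3.20 CPM of Dhh (0.388 to 11.6) in the younger library and 12.8 CPM (8.38 to 18.8) in the older one. Connective tissue-like cells had 0 Dhh UMIs at both ages.

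Ihh, the growth plate ligand, was concentrated in chondrocyte-like cells at E12.5. Of the 156 kept cells with an Ihh UMI at E12.5, 122 were chondrocyte-like and 23 connective tissue-like. The chondrocyte-like level was 45.6 CPM (39.0 to 53.0, 169 UMIs), 31.6-fold that of connective tissue-like cells at 1.44 CPM (0.923 to 2.14). Within the class, Ihh stood at 81.4 CPM in the cluster led by Hapln1, Matn1 and Matn3, at 67.1 in the one led by Matn1 and Hapln1, and at 15.05 in the one led by Matn4, Runx3 and Cytl1. At E15.5 only 9 kept cells had an Ihh UMI, 6 of them chondrocyte-like, and the class level was 1.26 CPM (0.461 to 2.73, 6 UMIs). The log2 ratio was -5.18 (-6.65 to -4.03), a 36.3-fold lower level.

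The E15.5 chondrocyte-like class was made of different clusters, and this bears on the Ihh value. Most of its 612 cells lay in a cluster of 473 led by Mia, Mecom and Sox9, while the cluster led by the cartilage matrix genes Matn1 and Col2a1 held 40 cells. Between clusters with Matn1 among their leading genes, a comparison added after the data were seen, Ihh went from 72.2 CPM (60.9 to 85.1, 143 UMIs) to 11.1 CPM (3.03 to 28.5, 4 UMIs), a log2 ratio of -2.70 (-4.60 to -1.31). Between these clusters the difference was thus smaller than over the class. They differed in other growth plate genes as well: Runx2 went from 267 to 19.4 CPM (log2 -3.78, -5.10 to -2.73), Mef2c had a log2 ratio of -1.70, Runx3 of -1.41, and Sp7 had 48 and 0 UMIs. The part of cell make-up in the Ihh difference was not tested. In cells thinned at random to 2000 UMIs, 7.68% of chondrocyte-like cells at E12.5 (6.08 to 9.55, 8.53% unthinned) and 0.330% at E15.5 (0.0400 to 1.19, 0.980% unthinned) had an Ihh UMI. Among thinned muscle lineage-like cells at E12.5, 0 of 554 had one, which allows a share of up to 0.542%, so that the 0.258% of connective tissue-like cells (11 of 4269) could not be told from free RNA at this depth. Median depths at E12.5 were 2405.5 UMIs in chondrocyte-like, 2368 in connective tissue-like and 3774 in muscle lineage-like cells.

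Chondrocyte-like cells with an Ihh UMI (74 thinned cells at E12.5) differed from the 889 without one in other growth plate genes. Panx3, a channel protein of prehypertrophic chondrocytes, stood at 115 against 21.9 CPM, and Pth1r, the receptor for the Pthlh signal, at 223 against 72.6. Mef2c stood at 980 against 389 CPM, Runx3 at 365 against 154 and Fgfr3 at 284 against 128, with every interval above 0 on the log2 scale. Runx2, at 304 against 278, did not differ beyond its interval (log2 -0.35 to 0.57). Ptch1 was higher in the cells with Ihh, at 1264 against 788 CPM (log2 ratio 0.68, 0.45 to 0.90), whereas Gli1, at 81.1 against 107, had an interval that spanned 0 (-1.38 to 0.44). The co-receptor Boc was lower, at 27.0 against 109 CPM, as was Gas1 at 74.3 against 145, and the cell cycle gene Ccnd1 stood at 345 against 693. These are cells of 1 library that share their source, so the ratios describe that library. Clusters of the class, which differed in Ihh, were not held fixed, and their part in these ratios was not tested.

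**Figure D2:**
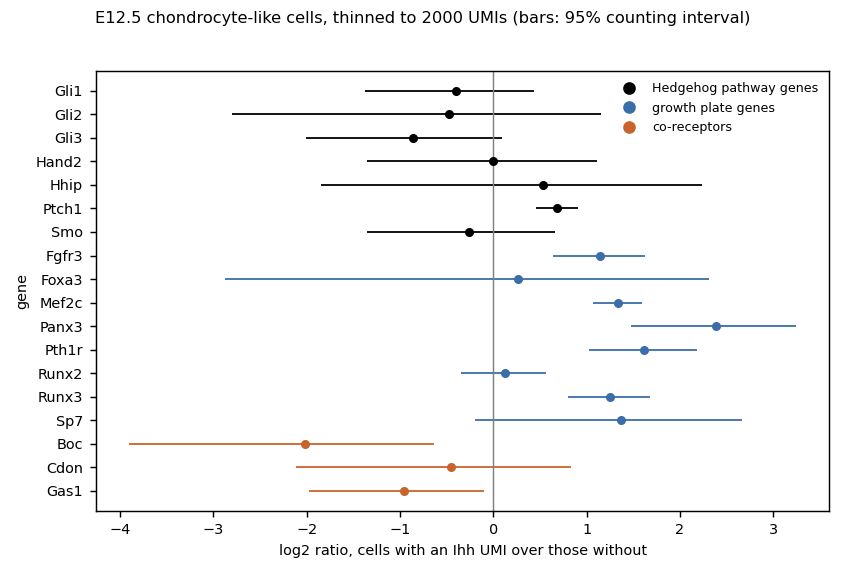
Log2 ratio (x axis) of each gene (y axis) between thinned E12.5 chondrocyte-like cells with an Ihh UMI (74) and without (889); points are ratios of summed UMIs and bars the 95% counting interval. Panx3, Pth1r, Mef2c, Runx3, Fgfr3 and Ptch1 lie above 0, and Boc and Gas1 lie below.

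Ptch1, the receptor and most direct target, was the gene with the clearest order among classes. At E12.5 it stood at 831 CPM (802 to 861) in chondrocyte-like, 294 (274 to 316) in joint interzone-like, 230 (223 to 238) in connective tissue-like and 160 (133 to 190) in tenocyte-like cells, in that order and with no overlap of intervals. Schwann-like (81.5), endothelial-like (73.6) and muscle lineage-like cells (72.1) followed and did not differ from each other beyond their intervals. Immune-like cells were lowest of these, at 31.9 CPM (12.8 to 65.8). At E15.5 chondrocyte-like cells were again highest, at 155 CPM (144 to 166), and no other named class of at least 50 cells exceeded 40.7 CPM. Mural-like (40.7), Schwann-like (35.9), endothelial-like (31.1) and tenocyte-like (30.8) cells overlapped in their intervals.

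Between the ages Ptch1 was lower in each of the 5 classes with at least 50 cells at both. In connective tissue-like cells the E12.5 level of 230 stood against 26.8 CPM (24.1 to 29.7), which is 8.59-fold lower (log2 ratio -3.10, -3.26 to -2.95). In chondrocyte-like cells the ratio was -2.43 (-2.54 to -2.31, 5.38-fold), in tenocyte-like cells -2.37 (-2.90 to -1.87), in muscle lineage-like cells -2.11 (-2.47 to -1.75) and in endothelial-like cells -1.24 (-1.82 to -0.66). Immune-like cells, with 43 cells at E12.5, went from 31.9 (12.8 to 65.8) to 12.9 CPM (6.42 to 23.0). The part of free RNA in the endothelial-like ratio was not tested. Relative to the median gene the connective tissue-like value was -2.74. Leaving out the connective tissue-like clusters led by cell cycle genes, which was tried only once the values were known, gave -2.63. Without the 4 E12.5 clusters whose markers did not exceed the rest of the library, likewise tried later, it was -2.32 (-2.50 to -2.14). Among connective tissue-like clusters Ptch1 at E12.5 ranged from 39.0 CPM, in a cluster led by Calb2, Lum and Kera, to 355 CPM in one led by Chrdl1 and Hoxa11os, and at E15.5 from 12.2 CPM, in a cluster led by Dpt and Apod, to 94.99 CPM in a shallow cluster of 81 cells.

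The share of thinned cells with a Ptch1 UMI gave the same order of ages. In connective tissue-like cells 29.5% had one at E12.5 (31.8% unthinned), against 5.34% (4.15 to 6.74) later (17.4% unthinned), and in chondrocyte-like cells the shares were 71.4% and 22.6% (72.7% and 48.7% unthinned). The share in classes of blood origin marks the background. It was 4.76% in immune-like cells at E12.5, and 3.33% in immune-like and 2.86% in mast cell-like cells at E15.5, at median depths of 4770, 10536.5 and 17801 UMIs. The few erythroid-like cells had 8.33% at E12.5 (3 of 36 cells, 1.75 to 22.5) and 0 of 18 at E15.5. The E15.5 share in muscle lineage-like cells, 2.80% (1.41 to 4.95), was no higher than the immune-like and mast cell-like shares and is read as background. The E15.5 connective tissue-like level of 26.8 CPM lay above the 12.9 CPM (6.42 to 23.0) of immune-like cells but overlapped the 25.0 CPM (17.6 to 34.5) of mast cell-like cells. It also overlapped the 42.0 CPM (20.1 to 77.3) of the 18 erythroid-like cells. Those 10 UMIs lay in 4 of the cells, which makes them an uncertain gauge of free RNA. Given the mast cell-like overlap, the connective tissue-like level is not clearly separated from free RNA. The chondrocyte-like level lay above all of these blood-origin levels.

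Smo, the transducer that Ptch1 restrains, differed little. Connective tissue-like cells of the younger library had 98.9 CPM (94.2 to 104) and those of the older one 80.2 CPM (75.5 to 85.1). The log2 ratio of -0.30 (-0.42 to -0.19) became 0.065 relative to the median gene. Chondrocyte-like cells had 91.2 and 84.4 CPM, a log2 ratio of -0.11 (-0.32 to 0.10) that turned to 0.13 on the same scale. At E12.5 connective tissue-like, joint interzone-like (96.5), tenocyte-like (94.6) and chondrocyte-like cells did not differ beyond their intervals, while muscle lineage-like cells had 60.9 CPM (51.7 to 71.4) and endothelial-like cells 46.4 (31.1 to 66.7). In muscle lineage-like cells Smo at E15.5 stood at 43.3 CPM (38.3 to 48.8), with a log2 ratio of -0.49 (-0.78 to -0.20). Smo was called lower in none of these classes.

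Hhip, which binds and sequesters ligand, was sparse. Joint interzone-like cells were highest at E12.5 with 33.2 CPM (26.5 to 41.0), followed by connective tissue-like cells with 19.99 (17.9 to 22.3) and chondrocyte-like cells with 14.0 (10.48 to 18.4). The connective tissue-like level in the older library was 5.08 CPM (3.94 to 6.44), so that the log2 ratio was -1.98 (-2.38 to -1.60), whereas chondrocyte-like cells had 11.3 CPM (8.49 to 14.8), with a ratio of -0.31 whose interval spanned 0 (-0.89 to 0.27). Without those 4 clusters the connective tissue-like ratio was -1.49 (-1.95 to -1.04). In the chondrocyte-like clusters with Matn1 among their leading genes, Hhip had 31 UMIs (15.7 CPM) in the younger library and 0 in the older. The interval of that log2 ratio lay below -0.53, so the class value did not hold between these clusters. Mural-like cells at E15.5 had 12.3 CPM (7.54 to 19.1, 20 UMIs). In muscle lineage-like cells Hhip had 13 UMIs in the younger and 6 in the older library. Their thinned share of 1.08% at E12.5 was close to the 0.847% (1 of 118 cells) of endothelial-like cells, so that no expression is read from it.

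Gli1, the Gli factor that is itself a target, was highest at E12.5 in chondrocyte-like cells (97.6 CPM, 87.8 to 108), which overlapped joint interzone-like cells (80.4, 69.8 to 92.2) and lay above connective tissue-like cells (80.1, 75.9 to 84.6). Muscle lineage-like cells had 41.8 CPM (34.2 to 50.6) and tenocyte-like cells 30.7 (19.7 to 45.7), which overlapped. Endothelial-like cells had no Gli1 UMI at either age, while Ptch1 stood at 73.6 and 31.1 CPM, the latter overlapping mast cell-like cells; 0 UMIs allow up to 4.80 CPM at E12.5 and 1.48 CPM at E15.5. At E15.5 mural-like cells, marked by Rgs5, Acta2 and Myh11, were highest at 87.6 CPM (73.8 to 103, 142 UMIs). Chondrocyte-like cells followed at 54.9 (48.4 to 61.9), connective tissue-like cells at 30.4 (27.5 to 33.5) and muscle lineage-like cells at 14.2 (11.4 to 17.5). Among classes of blood origin, mast cell-like cells had 7.44 CPM (3.71 to 13.3) and immune-like cells 1.17 (0.0296 to 6.52). The 18 erythroid-like cells had 46.2 CPM (23.1 to 82.7, 11 UMIs in 4 cells), which overlapped the mural-like, chondrocyte-like and connective tissue-like levels. Mural-like cells were 2.88-fold above connective tissue-like cells for Gli1 (log2 1.53, 1.24 to 1.81). With 1 library, a class named at E15.5 alone may be a property of that library. In the unnamed E15.5 clusters led by Aldh1a3 and by Nefm, Gli1 stood at 20.2 and 15.1 CPM and Ptch1 at 21.6 and 15.8 CPM.

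Between ages Gli1 had a log2 ratio of -1.40 (-1.56 to -1.24) in connective tissue-like cells, -1.56 (-1.99 to -1.14) in muscle lineage-like cells, -2.31 (-3.60 to -1.16) in tenocyte-like cells and -0.83 (-1.07 to -0.60) in chondrocyte-like cells, the last not called. In the chondrocyte-like clusters with Matn1 among their leading genes it went from 96.0 to 38.9 CPM (190 and 14 UMIs). That log2 ratio of -1.30 (-2.20 to -0.52) was past 2-fold. Relative to the median gene, the connective tissue-like value was -1.03, and without the cell cycle-led clusters it was -1.04. Without the 4 clusters with no marker above the rest it was -0.61 (-0.82 to -0.40), so that Gli1 was then lower by less than 2-fold and not called. In thinned connective tissue-like cells the share with a Gli1 UMI was 13.0% (12.1 to 14.1) in the younger library and 5.02% (3.87 to 6.38) in the older (15.9% and 19.0% unthinned). The unthinned shares run in the other direction because cells of the E15.5 library are deeper, and no order is read from them. Mural-like cells had a thinned share of 15.4% (9.38 to 23.2), and endothelial-like cells 0 of 122, which allows up to 2.46%.

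Cells with a Gli1 UMI held more Ptch1 and Hhip at E12.5. Among thinned connective tissue-like cells at E12.5, the 557 with Gli1 had 475 CPM of Ptch1 against 193 in the 3712 without (log2 1.30, 1.15 to 1.44) and 42.2 against 17.4 CPM of Hhip (1.28, 0.77 to 1.77). Smo, Gli2 and Gli3, which are not known as targets of this kind, differed by 0.040, 0.036 and -0.0014 on the log2 scale, with intervals that span 0. At E15.5 Ptch1 stood at 105 CPM in the 62 cells with Gli1 against 26.4 in the 1174 without (log2 1.99, 1.00 to 2.87), on 13 and 62 UMIs. In muscle lineage-like cells at E12.5, Ptch1 stood at 160 against 72.0 CPM (log2 1.15, 0.24 to 1.96). Other lists moved with Gli1 too in the E12.5 connective tissue-like cells. Growth plate genes stood at 443 against 239 CPM (log2 0.89, 0.75 to 1.04), while co-receptors were lower (-0.49, -0.61 to -0.37). The target list, which itself holds Ptch1 and Hhip, stood at 3235 against 2417 CPM (0.42, 0.37 to 0.47) and is no separate result. Clusters within the class were not held fixed. The part of clusters and of the other lists in the Ptch1 and Hhip differences was not tested. At E15.5 the summed target list did not differ beyond its interval in connective tissue-like (-0.13 to 0.35) or mural-like cells (-0.51 to 0.40).

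**Figure D3:**
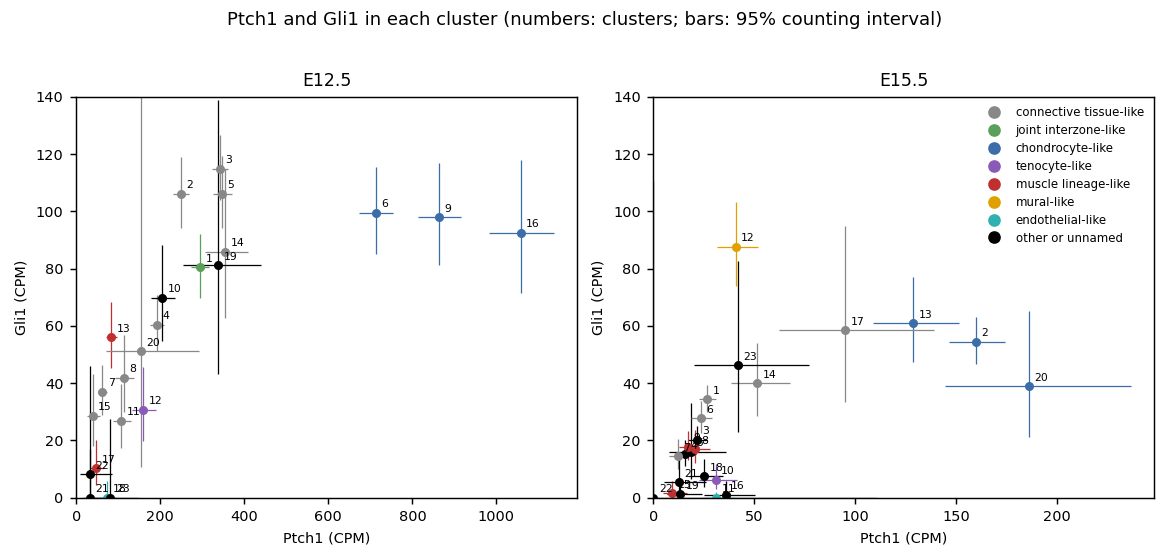
Ptch1 (x axis, CPM) against Gli1 (y axis, CPM) in each of the 23 clusters per age, coloured by class and numbered by cluster, with 95% counting intervals; the Gli1 axis is cut at 140, above every point, and the x axes differ between ages. The 3 chondrocyte-like clusters of E12.5 lie at 713 to 1058 CPM of Ptch1 with Gli1 near that of connective tissue-like clusters, and the mural-like cluster of E15.5 lies apart with 87.6 CPM of Gli1 and 40.7 CPM of Ptch1.

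Gli2 and Gli3, the main activator and repressor forms of the family, had another order of classes at E12.5 than Ptch1 and Gli1. Gli2 and Gli3 were then highest in joint interzone-like cells (82.4 CPM, 71.7 to 94.3, and 251 CPM, 232 to 272) and tenocyte-like cells (81.8 CPM, 63.0 to 104, and 202 CPM, 172 to 236). Connective tissue-like cells had 44.6 CPM of Gli2 and 137 CPM of Gli3, and chondrocyte-like cells 29.4 and 106 CPM. The target Hhip was likewise highest in joint interzone-like cells at E12.5, but was low in tenocyte-like cells (3.84 CPM). In the older library connective tissue-like cells had 21.3 CPM of Gli2 (18.9 to 23.9) and 52.7 CPM of Gli3 (48.9 to 56.7). The log2 ratios were -1.07 (-1.27 to -0.87) for Gli2 and -1.38 (-1.50 to -1.26) for Gli3. Relative to the median gene the Gli2 ratio was -0.70 and no longer reached 2-fold. In chondrocyte-like cells Gli3 stayed within its interval, at 99.0 CPM and a log2 ratio of -0.095 (-0.29 to 0.10), which turned to 0.15 relative to the median gene. In tenocyte-like cells the ratios were -1.95 for Gli2 and -2.32 for Gli3.

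In the muscle lineage Gli1, Gli2 and Gli3 were higher in the progenitor clusters at both ages. Ptch1 was so too, but its E15.5 levels are read as background. At E12.5, Gli1 stood at 56.0 CPM (45.4 to 68.4, 97 UMIs) in the 424 cells of the cluster led by Msc and Pax7, a factor of muscle progenitors, and at 10.3 CPM (4.43 to 20.2, 8 UMIs) in the 178 cells of the cluster led by the sarcomere genes Myh3 and Mylpf. The log2 ratio of the second to the first was -2.45 (-3.70 to -1.41). Gli2 stood at 23.1 against 6.41 CPM, Gli3 at 79.7 against 33.3 and Ptch1 at 83.2 against 47.5, each with an interval below 0. Smo, at 65.9 against 50.02 CPM, did not differ beyond its interval (-0.96 to 0.14), nor did the sparse Hhip and Hand2. At E15.5 Gli1 was at 17.4 CPM (13.9 to 21.5, 86 UMIs) in the Pax7-led clusters and 1.57 CPM (0.190 to 5.68, 2 UMIs) in the sarcomere-led cluster, a log2 ratio of -3.47 (-6.54 to -1.57), and Smo was then lower as well, at 21.2 against 49.0 CPM. The proliferation gene Top2a moved with this split (1225 against 278 CPM at E12.5 and 1151 against 35.4 at E15.5), and its part in the Gli1 difference was not tested. In each muscle state the E15.5 values of Gli1 and Ptch1 were below those of the same state at E12.5, with overlapping intervals only for Gli1 in the sarcomere-led clusters.

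**Figure D4:**
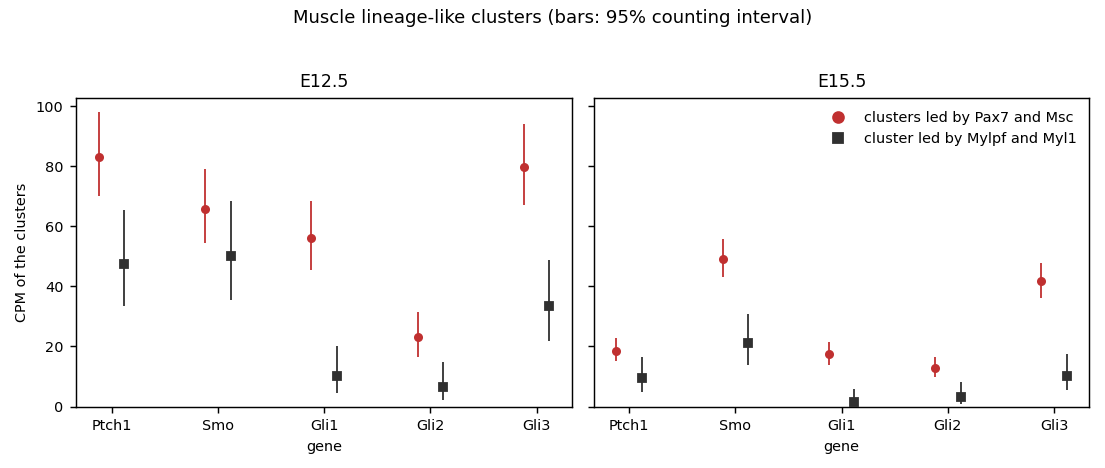
CPM (y axis) of 5 genes (x axis) in muscle lineage-like clusters led by Pax7 and Msc (red circles) and by Mylpf and Myl1 (black squares) at E12.5 and E15.5; bars are the 95% counting interval. Gli1 was lower in the sarcomere-led cluster at both ages (10.3 against 56.0 CPM, and 1.57 against 17.4).

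Counting the genes together, 6 of the 8 tested in connective tissue-like cells were called lower at E15.5 (Ihh, Ptch1, Hhip, Gli1, Gli2 and Gli3) and none higher; Gli1 left this count without the 4 clusters described above, and Gli2 and Gli3 were not refitted there. Among all genes tested in that class 22.7% were called lower and 9.91% higher. At a 4-fold cutoff (a log2 ratio of size 2) Ihh and Ptch1 remained, against a background of 8.45%, and the Ihh call there rests on 24 and 1 UMIs, in a class where Ihh could not be told from free RNA. In chondrocyte-like cells 2 of 8 were called lower (Ihh and Ptch1, background 14.6%) and 0 higher (background 9.56%), and the same 2 at 4-fold (background 3.93%). In muscle lineage-like cells 4 of 7 were called lower (Ptch1, Gli1, Hhip and Hand2, background 19.1%) and 0 higher (background 3.71%), and 3 at 4-fold (background 5.52%). Of these, Hhip (13 and 6 UMIs) and Hand2 (7 and 4 UMIs) rest on few molecules at background shares of cells. The E15.5 side of the Ptch1 ratio is read as background. For Gli1 the E15.5 share of thinned cells was 2.04% (0.883 to 3.97), near the 1.67% of immune-like cells, while 0 of 70 mast cell-like cells had a UMI. Tenocyte-like cells had 5 of 6 called lower (background 23.2%), all but Smo, and endothelial-like cells 1 of 3, Ptch1 (background 10.6%). The part of free RNA in the endothelial-like Ptch1 call was not tested. The median log2 ratio of the genes was -1.39 in connective tissue-like, -0.48 in chondrocyte-like and -1.56 in muscle lineage-like cells, beside the medians of all genes given above.

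**Figure D5:**
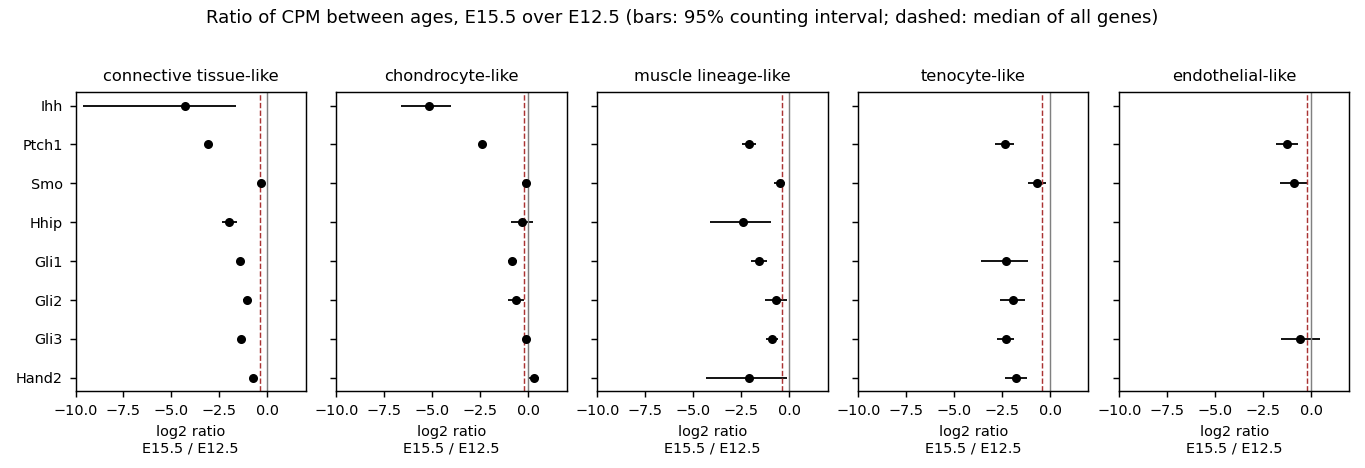
Log2 ratio of CPM, E15.5 over E12.5 (x axis), of each gene (y axis) in 5 cell classes, for genes with at least 10 UMIs over both ages; points are ratios of 1 library per age, bars the 95% counting interval, the grey line no difference and the dashed line the median of all genes. Ptch1 lies left of the dashed line in all 5 panels, and Smo and Gli3 lie near it in chondrocyte-like cells (-0.11 and -0.095).

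Hand2, the posterior factor, marked mesenchymal classes and was close to absent in muscle lineage-like, endothelial-like and immune-like cells. At E12.5 it stood at 129 CPM (115 to 144) in joint interzone-like, 97.2 (76.6 to 122) in tenocyte-like, 67.1 (63.2 to 71.2) in connective tissue-like and 52.1 (45.0 to 59.9) in chondrocyte-like cells, where only the first pair overlapped. Muscle lineage-like cells had 7 UMIs (2.79 CPM) and endothelial-like and immune-like cells none. Within connective tissue-like cells it ranged at E12.5 from 24.7 CPM in a cluster led by Shisa2, Fras1 and Tbx4 to 194 CPM in one led by Dcn, Kera and Grem1, apart from a cluster of 57 cells with no UMI. At E15.5 it reached 127 CPM in a cluster led by Twist2 and Stmn2, and 114 CPM in an unnamed cluster led by Nefm and Tac1. The connective tissue-like level of the older library was 40.2 CPM (36.8 to 43.7), and its log2 ratio to the younger one was -0.74 (-0.89 to -0.59). Chondrocyte-like cells had 63.9 CPM (56.9 to 71.4) and a ratio of 0.29 (0.030 to 0.56). Mural-like cells at E15.5 stood 2.25-fold below connective tissue-like cells of that library (log2 -1.17, -1.76 to -0.63). The 18 erythroid-like cells did not differ from them beyond the interval (log2 -0.087, -1.22 to 0.85).

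Connective tissue-like cells with a Hand2 UMI at E12.5 (409 thinned cells against 3860) carried more of other posterior and distal genes. Sall1 stood at 45.2 against 4.79 CPM (log2 3.24, 2.54 to 3.94), Hoxd11 at 100 against 32.5 (1.62, 1.25 to 1.99) and Hoxd10 at 40.3 against 17.6 (1.20, 0.60 to 1.75). The anterior-side genes Irx3 (12.2 against 29.7 CPM) and Alx4 (12.2 against 24.5) were lower, and Pax9, on the same list, was higher (33.01 against 15.8). Summed over the lists, posterior and distal genes stood at 429 against 235 CPM and anterior genes at 186 against 235. At E15.5 the 80 cells with Hand2 had more Irx5 (93.8 against 18.6 CPM) and Irx3 (56.2 against 11.7) than the 1156 without, so that the anterior list stood at 238 against 112 CPM and the posterior list at 144 against 123 with an interval that spanned 0. Irx3 was thus lower in cells with Hand2 at E12.5 and higher in them at E15.5, where the Twist2-led cluster had Irx1, Irx3 and Irx5 among its leading genes. Clusters were not held fixed at either age, and their part in these differences was not tested.

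Among genes that release or receive the ligand, 2 of 5 tested release genes were called lower in connective tissue-like cells (all genes 22.7%). These were Scube1 (45.7 to 11.2 CPM) and Scube3 (34.8 to 9.78), which help free the lipid-bound ligand. Disp1, the exporter, stood at 39.9 and 37.1 CPM. The co-receptors were called neither way there (0 of 4), with Gas1 at 551 and 547 CPM, Cdon at 92.8 and 103 and Boc at 83.1 and 53.5. In chondrocyte-like cells Gas1 went from 141 to 904 CPM (log2 2.68, 2.55 to 2.81) and Cdon from 44.0 to 121 CPM (1.46, 1.20 to 1.72), 2 of 4 called higher (all genes 9.56%). Among co-receptors in muscle lineage-like cells 1 of 4 was called lower (all genes 19.1%), Boc (43.8 to 10.2 CPM). Intracellular regulators include Sufu, the kinases and the transport genes of the primary cilium. In connective tissue-like cells 2 of these 20 were called lower, a smaller share than the 22.7% of all genes. They were Gpr161 (16.3 to 4.55 CPM) and Stk36 (6.00 to 2.84), and the list median was -0.54 beside -0.37 for all genes. Sufu itself stood at 21.6 and 17.7 CPM. In chondrocyte-like cells 2 of 5 release genes (Scube1 and Scube3) and 1 of 20 regulators (Gpr161) were called lower, where 14.6% of all genes were. Muscle lineage-like cells had 3 of 4 release genes (Scube1, Scube3 and Hhat) and 2 of 20 regulators (Btrc and Gpr161) called lower, where 19.1% of all genes were.

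Of the 16 target genes known from limb and mesenchyme, 14 were tested in connective tissue-like cells and 8 were called lower, with a list median of -1.35 (all genes 22.7% and -0.37). Besides Ptch1, Gli1 and Hhip these were Foxc1 (61.5 to 3.06 CPM), Foxc2 (14.5 to 0.299), Mycn (10.7 to 1.49), Ccnd1 (450 to 184) and Grem1 (52.8 to 16.9). Bmp4 (49.3 and 36.5 CPM), Bmp2 (47.7 and 33.7) and Osr2 (72.7 and 88.9) were not called. In chondrocyte-like cells 4 of 14 were called lower (Ptch1, Foxc2, Ccnd1 and Mycn, all genes 14.6%) and 2 higher (all genes 9.56%), Grem1 (5.12 to 21.1 CPM) and Osr2 (34.8 to 112). Muscle lineage-like cells had 8 of 11 targets called lower (all genes 19.1%), with Ccnd2 (507 to 91.0 CPM) and Ccnd1 (94.4 to 41.1) the most abundant. The 8 include Ptch1, Gli1 and Hhip, whose calls and limits in this class are given above. Of the growth plate genes, 8 of 10 were called lower in chondrocyte-like cells, with a list median of -3.15 beside -0.24 for all genes. They include Runx2 (282 to 30.1 CPM), Runx3 (157 to 11.9), Fgfr3 (142 to 13.8), Sp7 (20.2 to 0.628) and Panx3 (24.8 to 2.93), and Pthlh (5.66 to 22.6) and Alpl (1.89 to 7.54) were called higher. Ihh was thus lower beside most growth plate genes, in a class whose clusters differ between ages. Growth plate genes called lower numbered 6 of 10 in connective tissue-like and 4 of 5 in muscle lineage-like cells, where 22.7% and 19.1% of all genes were.

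Of the posterior and distal limb genes 7 of 13 were called lower in connective tissue-like cells (all genes 22.7%), among them Hoxd11 (44.5 to 11.3 CPM), Etv5 (41.5 to 18.7) and Fgf8 (4.80 to 0.224), and of the anterior genes 3 of 8, Alx4 (21.1 to 7.02), Asb4 (141 to 53.2) and Pax9 (16.8 to 2.24), with Irx5 higher (10.2 to 25.6). In chondrocyte-like cells 3 of 11 posterior and distal genes were called lower (all genes 14.6%) and 2 higher (9.56%), Hoxa13 (3.78 to 31.0 CPM) and Sall1 (1 and 51 UMIs). Of the 7 anterior genes tested there, 2 were called lower (all genes 14.6%), Asb4 and Irx3, and 3 higher (9.56%), among them Pax1 and Pax9. In muscle lineage-like cells 5 of 9 posterior and distal genes and 0 of 3 anterior genes were called lower (all genes 19.1%).

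Across the 23 clusters of each age, the genes whose level followed each pathway gene most closely were found among 11329 genes by the smaller of the Pearson correlations at the 2 ages. For Ptch1 these were Matn4 (r = 0.91 at E12.5 and 0.84 at E15.5), Col2a1, Foxc1, Acan and Col9a1, mostly cartilage genes. For Gli1 they were Hoxa10 (0.86 and 0.78), Gpc6, Dnm3os, Sept3 and Farp1, and for Hhip Hoxc8 (0.71 and 0.74), C630043F03Rik, Asxl3, Sema5a and Slit3. Gli2 was closest to Pcdh18 (0.87 and 0.86), Gli3 to Lrig3 (0.91 and 0.89) and Smo to Neo1 (0.88 and 0.87). Hand2 was closest to Hand2os1 (0.84 and 0.89), its antisense neighbour, with which it may share reads. Ptch1 and Gli1 had r = 0.80 and 0.69 with each other, and Gli2 and Gli3 0.83 and 0.78. The clusters of an age share a library, so these values describe the 2 libraries.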

How the data were processed

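Single-cell RNA was profiled in 1 library per age. Each deposited matrix gives whole-number UMI counts by gene and barcode, not normalized, made with Cell Ranger 4.0.0 per the file headers; mm10 and Seurat 4.3.0 are named in the submitters' processing notes. Deposited totals were 34907675 UMIs in 12941 barcodes at E12.5 and 46966083 in 5780 at E15.5, and the lowest barcode had 500 UMIs. Strand use and annotation release are not given in the sources used here.

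Cells with at least 500 genes and under 10% mitochondrial UMIs were kept (12271 and 4106). Doublets were scored as in Scrublet, and the highest scores were removed at 0.8% per 1000 deposited cells (1218 and 175 cells). Each library was clustered alone (counts scaled to 10000 per cell, 2000 variable genes, 30 principal components, 15 neighbours, Leiden resolution 1.0, seed 0), with the 9 genes, the pathway and limb lists, Xist and Y-linked genes kept from guiding it. A cluster took a class name from at least 3 markers that were 2-fold higher and detected in 10% of its cells, with 1 or more among its top 10 genes by fold (10 CPM added). Other clusters were named connective tissue where at least 3 of its markers were 2-fold higher than in the named non-mesenchymal clusters, their top 10 genes did not hold more markers of another class, and the median depth was at least 1/3 of the library's; the rest stayed unnamed.

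UMIs were summed per class and age. CPM have exact Poisson, shares exact Clopper-Pearson and ratios exact conditional 95% intervals, which cover counting error only; the limit for a count of 0 is 3 counts. Shares and co-detection used cells thinned to 2000 UMIs. No test between ages is possible with 1 library each. The script was tested on simulated counts. Named were the 9 genes in every class of at least 50 cells and, from each list, up to 6 of the most abundant genes and those called, of which examples are printed; some list genes are not reported here. The 5 most alike genes were taken among those with at least 100 UMIs in each library. The genes and lists were chosen with earlier results of these data known. Tools were Python 3.11.15, leidenalg 0.10.2, igraph 0.11.9, scikit-learn 1.9.0, scipy 1.17.1, numpy 2.4.6, pandas 2.3.3 and, for plots, matplotlib 3.10.9. The alternatives were other resolutions, a 1000-gene minimum, no doublet removal, joint clustering, pathway genes left in, scaling to the median gene, thinning and all kept cells.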

Additional observations from a re-analysis of the deposited data

Results flagged for a closer look

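Hand2 differed between ages in opposite directions in different classes. Its log2 ratio (E15.5 over E12.5) was 0.29 in chondrocyte-like cells and -0.74 in connective tissue-like, -1.79 in tenocyte-like and -2.11 in muscle lineage-like cells, the last on 7 and 4 UMIs. The difference between the classes was not tested, since each value comes from 1 library per age. In the chondrocyte-like clusters with Matn1 among their leading genes Hand2 stood at 49.0 CPM in the younger and 33.3 CPM in the older library (log2 ratio -0.56, -1.56 to 0.31), so that the positive sign in chondrocyte-like cells was not seen there.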

How the results depend on the processing

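No paired analysis was possible because each age is 1 library. The log2 ratios between ages of Ptch1, Gli1 and Hhip in connective tissue-like cells and of Ihh in chondrocyte-like cells stayed below 0 under all alternatives run. The Ptch1 value (-3.10) moved beyond its counting interval with no doublets removed (-3.30), at least 1000 genes per cell (-3.46), pathway genes left in the clustering (-3.39), scaling to the median gene (-2.74), thinning to 2000 UMIs (-2.92), all kept cells (-2.89) and, an alternative added after seeing the data, without the clusters led by cell cycle genes (-2.63). Gli1 (-1.40) moved to -1.03 when scaled to the median gene and to -1.04 without the cell cycle-led clusters. Without the 4 E12.5 clusters that have no marker 2-fold over the rest of the library, also added after seeing the data, Ptch1 was -2.32, Gli1 -0.61 (under 2-fold, so not called) and Hhip -1.49. Hhip (-1.98) moved to -2.49 with at least 1000 genes. Ihh (-5.18) moved to -2.70 with only the Matn1-led clusters, also added later. The count of genes called lower in connective tissue-like cells was 6, and 2 at a log2 ratio of size 2, by construction of the stricter cutoff. The causes of the other shifts were not tested. Depth limits what can be said of low levels: 3 UMIs in E15.5 chondrocyte-like cells are worth 0.628 CPM, and a level of Ihh under that could not have been told from 0.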
